A study of Mus musculus with 6 samples.

Results

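The genes described here are *Mpo*, *Elane*, *Prtn3*, *Ctsg*, *Ms4a3* and *Prss57*, 6 of the 54532 genes in the deposited table, taken by gene name as a set of azurophil granule genes. Their RNA was compared between GFP+ leukemia cells sorted from the bone marrow of mice carrying RUNX1-ETO9a (RE9a), a truncated product of the t(8;21) fusion. *WT Phf6,RE9a* cells came from *Phf6* fl/y males that keep *Phf6*, and *VC Phf6,RE9a* cells came from *Vav1-Cre;Phf6* fl/y males, in which Cre driven by the blood-specific Vav1 promoter removes *Phf6* from hematopoietic cells. Both groups carry the floxed allele and the same RE9a-GFP retrovirus, which was introduced into fetal liver cells before serial transplantation into male recipients. There were 3 libraries in each group, replicates 1, 2 and 3 of *WT Phf6,RE9a* and replicates 11, 12 and 13 of *VC Phf6,RE9a*, and the age of the mice is not given in the labels. Nothing in the labels ties the 3 libraries of a group to separate leukemias or animals, so the p-values measure only the spread between these samples, which may be technical.

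Azurophil, or primary, granules are the first granules that a developing neutrophil makes, at the promyelocyte stage, and their cargo genes are switched off again before the specific and gelatinase granules are filled. The cargo is a heme peroxidase, myeloperoxidase, and a family of serine proteases that are stored in active form after their propeptide has been clipped. RUNX1, PU.1, C/EBP factors and MYB are textbook activators of these genes, and RUNX1-ETO fusions are known for holding myeloid cells near this stage.

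*Elane* and *Prtn3* lie side by side, and the bases before their starts are shown with those of *Ctsg* because these 3 serine protease genes hold the searched motifs that bear on the fusion protein and its partners. Sequences are from RefSeq on GRCm38.p6, written 5′ to 3′ on the strand of the gene, and end at the base before the RefSeq start. That start is not always the start of the deposited gene. The windows of *Prtn3* and of *Mpo* lie wholly inside the deposited genes, which begin at 79874476 and 87793581. The *Elane* window runs into its deposited gene, which begins at 79886247, and the *Ctsg* window adjoins its deposited gene. Capitals mark the RUNX motif TGTGGT, the ETS motif GAGGAA that PU.1 can bind, or the C/EBP motif TTGCNNAA, on either strand.
Elane, chr10:79886162-79886311, + strand: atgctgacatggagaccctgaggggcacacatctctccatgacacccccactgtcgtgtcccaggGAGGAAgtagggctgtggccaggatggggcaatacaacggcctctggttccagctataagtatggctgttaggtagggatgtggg
Prtn3, chr10:79879517-79879666, + strand: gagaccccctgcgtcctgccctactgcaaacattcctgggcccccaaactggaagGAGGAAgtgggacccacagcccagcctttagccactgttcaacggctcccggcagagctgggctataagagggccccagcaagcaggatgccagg
Ctsg, chr14:56102575-56102724, - strand: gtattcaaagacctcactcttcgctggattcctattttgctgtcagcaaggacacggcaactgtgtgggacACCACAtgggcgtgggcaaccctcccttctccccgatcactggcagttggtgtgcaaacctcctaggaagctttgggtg
*Elane* and *Prtn3* both hold GAGGAA on the gene's own strand, at positions -85 to -80 and -95 to -90 from the start. *Ctsg* holds the RUNX motif on the opposite strand, read as ACCACA, at positions -79 to -74. *Mpo* and *Ms4a3* hold none of these motifs in the same 150 bases, and *Prss57* was not looked up. The C/EBP motif and TATAAA were found in none of the 5 promoters, and AACNG, a MYB core, was found in 3 (*Elane*, *Prtn3* and *Ctsg*). Of 32851 RefSeq promoter windows of this length, 8.40% hold the RUNX motif, 14.5% GAGGAA, 5.46% the C/EBP motif, 55.1% AACNG and 7.57% TATAAA. All 250 bases before the start were searched only after a GAGGAA match further up in *Mpo* had been seen. In that window GAGGAA was present in 4 of the 5 promoters, *Mpo* and *Ctsg* included, and in 23.3% of all promoters. Because the match in *Mpo* led to the window, this count cannot be weighed against that percentage. AACNG was present in 4 of the 5 in the same window, and in 74.2% of all promoters. The RUNX motif and TATAAA were each present in *Ctsg* alone, and the C/EBP motif in none. These matches are a description of letters and say nothing of binding.

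All 6 genes passed the filter on low counts and were higher in *VC Phf6,RE9a* cells at an adjusted p under 0.05, and none was lower. Of the 14169 genes tested, 21.5% were called higher and 22.7% lower by the same rule. The groups did not overlap for any of the 6 genes, with each *VC Phf6,RE9a* library above each *WT Phf6,RE9a* library, a pattern seen in 28.9% of tested genes. The median log2 fold change of the 6 genes was 1.79 and that of all tested genes was 0.01. Levels are given as CPM, each library's counts scaled to a common library size, fold changes are *VC Phf6,RE9a* over *WT Phf6,RE9a* with their standard error (SE), and adjusted p-values are those of edgeR's quasi-likelihood test, adjusted by Benjamini-Hochberg over every tested gene. In sorted bulk samples, a change in the share of cells that express a gene and a change in RNA per cell cannot be told apart.

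*Mpo* encodes myeloperoxidase, which makes hypochlorous acid from hydrogen peroxide and chloride, and lies at chr11:87793581-87804413 (+ strand, GRCm38). Its level was 23.9, 16.8 and 68.2 CPM in *WT Phf6,RE9a* replicates 1, 2 and 3 and 175, 137 and 90.0 CPM in *VC Phf6,RE9a* replicates 11, 12 and 13. Replicate 3 was the high library of its group and replicate 13 the low one of the other, and they were the closest pair. The mean was 36.3 ± 27.9 CPM (SD, n = 3) against 134 ± 42.5 CPM (SD, n = 3). The fold change was 3.68, or 1.88 on the log2 scale (SE 0.50), with an adjusted p of 0.0180 by edgeR. The call was lost without *WT Phf6,RE9a* replicate 1 (adjusted p = 0.0612 by edgeR) and without *VC Phf6,RE9a* replicate 11 (adjusted p = 0.0585 by edgeR), and the fold change was 6.54 without *WT Phf6,RE9a* replicate 3.

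*Elane* encodes neutrophil elastase and *Prtn3* proteinase 3, closely related serine proteases whose genes are 3073 bases apart on chromosome 10, at chr10:79886247-79888215 and chr10:79874476-79883174, both on the + strand. *Elane* was at 8.37, 6.72 and 21.1 CPM in the *WT Phf6,RE9a* libraries and at 82.1, 59.4 and 35.2 CPM in the *VC Phf6,RE9a* libraries. *Prtn3* was at 8.89, 5.50 and 16.2 CPM and at 73.7, 47.6 and 32.4 CPM in the same order. Both genes ran in the same order through the 6 libraries. *Elane* rose 4.86-fold, 2.28 on the log2 scale (SE 0.47), with an adjusted p of 0.00603 by edgeR, and 7.75-fold without *WT Phf6,RE9a* replicate 3. *Prtn3* rose 5.01-fold, 2.33 on the log2 scale (SE 0.42), with an adjusted p of 0.00371 by edgeR. Both calls held without any 1 library. The deposited *Prtn3* gene shares 159 bases with *Plppr3* on the other strand, and the use of strand in counting is not given in the sources used here. *Plppr3* itself fell (log2 fold change -0.48, adjusted p = 0.0484 by edgeR), opposite to *Prtn3*.

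*Ctsg* encodes cathepsin G, a chymotrypsin-like protease of the same granule, at chr14:56099881-56102574 on the - strand. Its level was 6.62, 5.97 and 8.41 CPM in the *WT Phf6,RE9a* libraries and 28.3, 18.9 and 10.3 CPM in the *VC Phf6,RE9a* libraries. The first group was tight and the second spread, so that replicates 3 and 13 nearly met. *Ctsg* rose 2.74-fold, 1.45 on the log2 scale (SE 0.35), with an adjusted p of 0.0125 by edgeR.

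*Ms4a3* encodes a membrane protein that marks granulocyte-monocyte progenitors and is a companion of the granule genes rather than a stored protease. It lies at chr19:11629496-11640851 on the - strand. Its level was 2.66, 2.37 and 4.54 CPM against 15.6, 9.61 and 6.12 CPM, with the same high and low libraries as before. It rose 3.26-fold, 1.70 on the log2 scale (SE 0.40), with an adjusted p of 0.0113 by edgeR. *Prss57*, which encodes neutrophil serine protease 4, lies at chr10:79781474-79790961 on the - strand and was the least counted of the 6, with 14, 6 and 25 reads against 55, 54 and 26 reads. Replicates 3 and 13 differed by 1 read. It rose 2.77-fold, 1.47 on the log2 scale (SE 0.50), with an adjusted p of 0.0456 by edgeR, the call closest to the threshold. That call was lost without *WT Phf6,RE9a* replicate 1 or 2 or *VC Phf6,RE9a* replicate 11 or 12, with adjusted p-values by edgeR of 0.112, 0.0953, 0.132 and 0.129. *Fstl3* overlaps 1157 bases of *Prss57* on the other strand and had 71 reads over all libraries. They were 5, 5 and 10 reads in the *WT Phf6,RE9a* and 15, 7 and 29 in the *VC Phf6,RE9a* libraries. The mean of *Fstl3* was thus higher in the same group as that of *Prss57*, though its groups overlapped. *Fstl3* did not pass the filter on low counts, and its part in the *Prss57* reads was not tested.

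**Figure D1:**
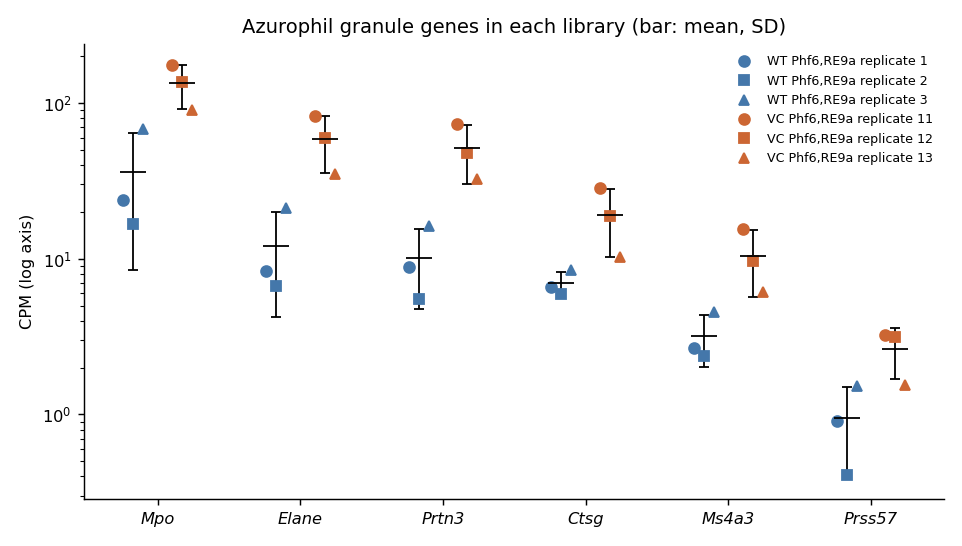
Level of each gene in each library, in CPM on a log axis, with points for libraries (*WT Phf6,RE9a* blue, *VC Phf6,RE9a* orange) and bars for the group mean and SD (n = 3). For each of the 6 genes the 3 orange points lie above the 3 blue ones, and the blue and orange triangles, replicates 3 and 13, are the nearest pair.

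**Figure D2:**
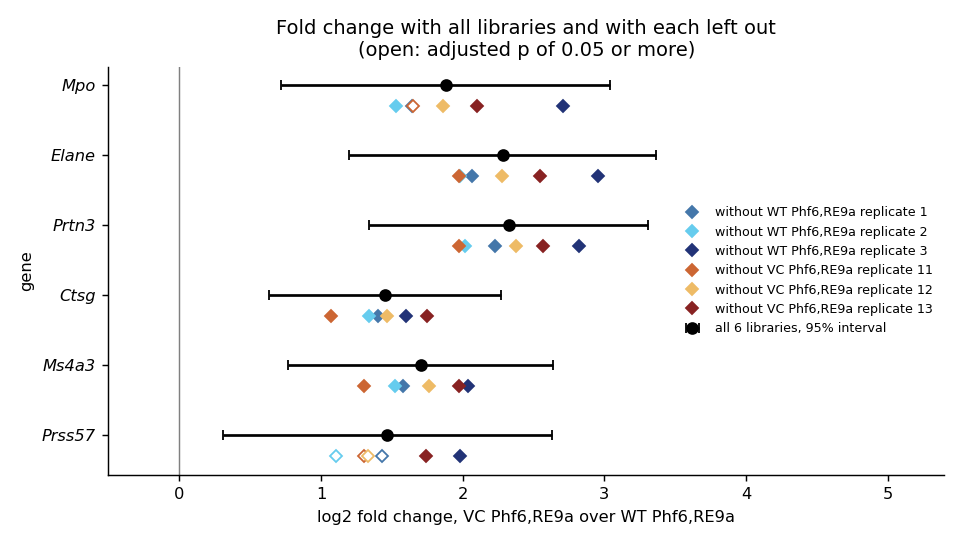
Log2 fold change of each gene with its 95% interval from all 6 libraries (black) and with 1 library left out (diamonds, open where the adjusted p is 0.05 or more). All intervals lie above 0, with open diamonds at *Mpo* and *Prss57* alone, and the dark blue diamond, without *WT Phf6,RE9a* replicate 3, is the highest for *Mpo*, *Elane*, *Prtn3*, *Ms4a3* and *Prss57*.

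Together the 6 genes took 0.00470%, 0.00355% and 0.0119% of all counts in the *WT Phf6,RE9a* libraries and 0.0392%, 0.0294% and 0.0184% in the *VC Phf6,RE9a* libraries. The groups did not overlap, and the ratio of the means was 4.33, or 7.03 without *WT Phf6,RE9a* replicate 3. An exact two-sided permutation test gave p = 0.1, the smallest that 3 against 3 libraries allow. Per length, in the FPKM values that the authors deposited, *Elane* was the most abundant of the 6 in both groups, at 12.2 ± 7.86 FPKM (SD, n = 3) and 59.1 ± 23.6 FPKM (SD, n = 3). It stood above 67.6% of tested genes in *WT Phf6,RE9a* cells and above 94.5% in *VC Phf6,RE9a* cells. *Mpo* stood above 63.5% and 90.6%, and *Prss57*, the least abundant, above 8.38% and 18.9%.

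The balance within the set was compared as the FPKM of each gene over that of *Elane*, 5 ratios chosen after the values were seen. *Prtn3* kept to 0.436 to 0.603 of *Elane* in *WT Phf6,RE9a* cells and 0.456 to 0.523 in *VC Phf6,RE9a* cells (exact permutation p = 1). *Ctsg* was at 0.380 to 0.847 of *Elane* in the first group and 0.280 to 0.328 in the second, without overlap, a log2 difference of -1.04 (exact permutation p = 0.1, 0.167 after adjustment over the 5 ratios). *Ms4a3* and *Prss57* also had ratios that did not overlap, with log2 differences of -0.73 and -0.79 and the same p-values. *Mpo* was at 0.720 to 0.931 of *Elane* in *WT Phf6,RE9a* cells and 0.612 to 0.734 in *VC Phf6,RE9a* cells, which overlap, a log2 difference of -0.29 (exact permutation p = 0.2, 0.25 after adjustment). None of the 5 differences in balance passed 0.05, which 3 against 3 libraries cannot reach.

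Within each group the 6 genes ranked the libraries alike. Replicate 3 was the highest and replicate 2 the lowest *WT Phf6,RE9a* library for all 6 genes, and replicate 11 was the highest and replicate 13 the lowest *VC Phf6,RE9a* library for all 6. On the log2 CPM scale the median gene was 0.78 above its group mean in replicate 3 and deviated by -0.66 in replicate 13. The 13 genes of the specific and gelatinase granule list, which neutrophils switch on later, deviated by 0.98 and -1.05 in the same libraries. That list, called the later granule genes below, also holds *S100a8* and *S100a9*, which encode cytosolic proteins. The 8 heme synthesis enzymes, which supply the cofactor of myeloperoxidase, deviated by 0.28 and -0.02. For 6 of the 8 replicate 3 was the highest *WT Phf6,RE9a* library, and for 6 replicate 2 was the lowest. The erythroid markers deviated by 0.45 and -0.06 in replicates 3 and 13. Replicate 13 was also the lowest *VC Phf6,RE9a* library for 11 of 12 myeloid stage markers and all 4 tested B cell markers. What sets these libraries apart was not tested.

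**Figure D3:**
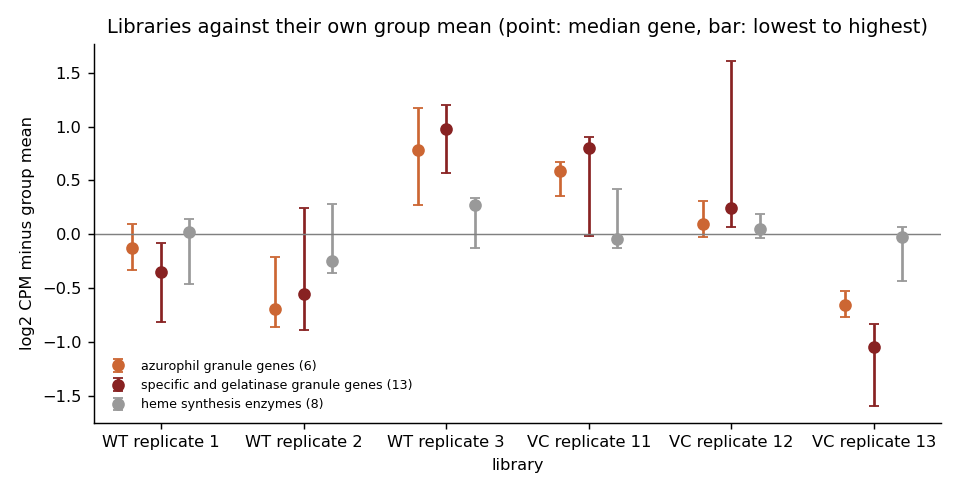
Log2 CPM of each library minus its group mean, with points for the median gene of a list and bars from the lowest to the highest gene. The azurophil and the later granule genes are both high in replicates 3 and 11 and low in replicates 2 and 13. The medians of the heme synthesis enzymes stay between -0.25 in replicate 2 and 0.28 in replicate 3.

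The genes whose levels ran closest to the 6 over the 6 libraries were picked from 11438 tested genes by the root mean square (RMS) difference of centred log2 CPM. *Anxa3*, an annexin, was nearest to *Elane* (RMS 0.06) and *Hp*, the haptoglobin of neutrophil granules, was next (RMS 0.14), followed by *Mtus1*. *Anxa3* and *Fmnl3* were among the genes nearest to *Mpo*, and *Atp8b4*, *Gca* and *Marcks* were nearest to *Prtn3*. *Ctsg* was closest to *Wdfy4*, *Clec7a* and *Slc28a2*, *Ms4a3* to *Xdh*, *Wdfy4* and *Lrp5*, and *Prss57* to *Rap1gds1*, *Pecam1* and *Drc7*.

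The later granule genes moved the same way as the azurophil genes. Of 13 tested, the cytosolic *S100a8* and *S100a9* among them, 12 rose and none fell, with a median log2 fold change of 2.90. *Ltf*, lactoferrin of specific granules, rose by 3.10 on the log2 scale and *Lcn2*, an iron-siderophore binder, by 2.84. *Olfm4* had a log2 fold change of 2.51 with an adjusted p of 0.0545 by edgeR. Of 13 tested genes for other azurophil granule content, most of them lysosomal hydrolases, 8 were lower and 2 higher, with a median of -0.52. *Glb1*, a galactosidase that degrades glycans, fell (log2 fold change -1.72), as did *Man2b1* (-0.52) and *Srgn* (-0.57), the proteoglycan that packs granule proteases. *Lyz2*, lysozyme, rose by 2.66 and *Arsb*, a sulfatase, by 1.99. The number lower was 4 without *VC Phf6,RE9a* replicate 11 and 5 when libraries were scaled by their totals alone, a scaling that moves the median of all genes to 0.16.

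Genes that fold, sort or activate the granule proteins were mixed, with 2 of 12 higher and 5 lower. Of all tested genes, 21.5% were higher and 22.7% lower. *Ctsc*, cathepsin C, which clips the propeptides of the serine proteases, rose by 0.98 on the log2 scale (adjusted p = 0.0158 by edgeR), and *Cst7*, an inhibitor of cathepsin C, fell (-1.24). *Calr*, *Canx* and *Pdia3*, chaperones of the endoplasmic reticulum, had log2 fold changes of -0.16, 0.17 and -0.05 and did not pass the test. Without *VC Phf6,RE9a* replicate 11, 0 were higher and 3 lower by edgeR. Of the 8 heme synthesis enzymes, 7 rose and none fell, with a median of 0.85, and *Alas1*, the housekeeping first enzyme, had a log2 fold change of 0.42 (adjusted p = 0.251 by edgeR). Erythroid markers, whose cells also make heme, moved with them and with the granule genes: all 6 were higher, and their summed level was 1364 to 2104 CPM in *WT Phf6,RE9a* libraries and 4484 to 5163 CPM in *VC Phf6,RE9a* libraries. Their part in these results was not tested.

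Of the 6 tested inhibitors of the granule proteases, 1 rose with its target and 2 fell. *Serpinb1a*, a cytosolic serpin that blocks neutrophil elastase, proteinase 3 and cathepsin G, was at 1183 ± 257 CPM (SD, n = 3) in *WT Phf6,RE9a* and 82.8 ± 49.1 CPM (SD, n = 3) in *VC Phf6,RE9a* cells and fell (log2 fold change -3.84, adjusted p = 3.75e-04 by edgeR). *Serpinb6a*, a serpin that blocks cathepsin G, fell (-0.91) and *Slpi*, a secreted inhibitor of elastase, rose by 2.56 from 1.43 to 8.51 CPM. The list held 11 inhibitors, and the other 3 tested (*Serpina3g*, *Serpinb6b* and *Serpina3f*) did not pass the test. The number lower was 1 without any 1 of the *VC Phf6,RE9a* libraries.

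The regulators of these genes split, with 4 of 10 higher and 3 lower, beside 21.5% and 22.7% of all tested genes. *Cebpa*, needed for entry to the granulocyte line, rose by 1.94 on the log2 scale, and *Cebpe*, which drives the later granules, rose by 3.26 from 0.709 to 6.94 CPM. *Cebpd* and *Irf8* rose by 2.01 and 1.77. *Gfi1*, a repressor needed for neutrophil development, was at 42.4 ± 13.4 CPM (SD, n = 3) and 3.78 ± 1.27 CPM (SD, n = 3) in the same groups and fell (-3.48, adjusted p = 1.94e-04 by edgeR). *Myb* (-0.35) and *Cbfb* (-0.52), the partner of RUNX1, also fell. *Runx1* had a log2 fold change of -0.27 (adjusted p = 0.0547 by edgeR), and *Spi1*, which encodes PU.1, of 0.20 (adjusted p = 0.207 by edgeR).

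**Figure D4:**
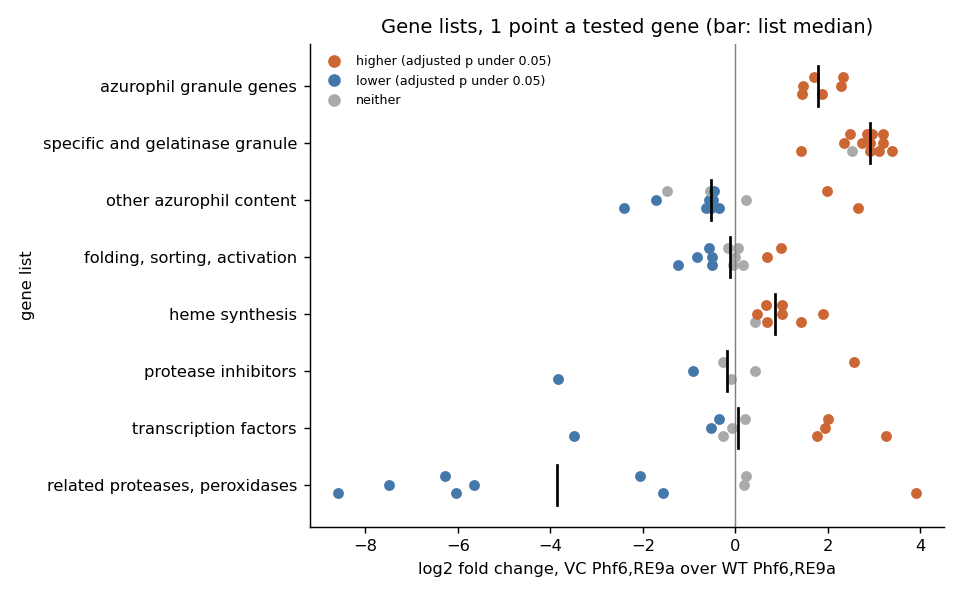
Log2 fold change of each tested gene by list, with orange points higher, blue points lower, grey points neither and a bar at the list median. The azurophil and later granule genes lie to the right of 0, and the related proteases and peroxidases, with a median of -3.85, lie mostly to the left.

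Of 10 tested proteases and peroxidases of the same families in other granulocytes, mast cells and lymphocytes, 7 were lower and 1 was higher. *Cma1*, *Tpsb2*, *Tpsab1* and *Gzmb*, proteases of mast cells and lymphocytes, fell, with log2 fold changes of -5.64, -7.49, -6.27 and -8.58. *Epx*, the eosinophil peroxidase, rose by 3.90. Mast cell and basophil markers fell with the proteases: 5 of 6 were lower, with a summed level of 14109 to 21402 CPM in *WT Phf6,RE9a* libraries and 4912 to 5327 CPM in *VC Phf6,RE9a* libraries. Of the other markers, 6 of 12 of the myeloid stage list were higher and 4 lower. The lower ones were *Kit* (log2 fold change -3.15), which is on the mast cell list too, *Cd34* (-4.63), *Cd93* (-3.35) and *Fcgr3* (-1.06). The higher ones were *Csf3r* (3.26), *Ly6c2* (2.28), *Fcnb* (2.61), *Itgam* (2.31), *Ly6g* (3.57) and *Cxcr2* (3.21). *Flt3* (0.95) and *Csf1r* (0.58) did not pass the test. Tested B cell markers were all 4 higher, at a summed 0.611 to 1.10 against 9.03 to 26.9 CPM. The T cell list, none of it tested, summed to 0.847 to 0.909 against 1.25 to 3.54 CPM. Among macrophage markers 1 of 6 was higher, with 23.2 to 28.0 against 36.2 to 39.3 CPM. The part of these cell types in the granule gene results was not tested.

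Position did not go with direction in a single way. Within 200 kb of the 6 genes, 54 other genes were tested, of which 16 were higher and 14 lower, beside 21.5% and 22.7% of all tested genes. Within 100 kb, 14 of 34 were higher and 5 lower, and within 500 kb, 21 of 106 were higher and 42 lower, so the balance turned with the window. At the chromosome 10 locus of *Elane*, *Prtn3* and *Prss57*, 8 of 24 were higher and 2 lower. *Palm*, the nearest tested gene on the 5′ side of *Prss57*, rose by 1.65, and *Ptbp1*, an RNA-binding splicing regulator between *Prss57* and *Prtn3*, fell (-0.50). *Misp* at the same locus, named after its values were seen, had 0 counts in each *WT Phf6,RE9a* library and 11 to 12 in each *VC Phf6,RE9a* library. Near *Ctsg*, which rose, 0 of 11 genes were higher and 9 were lower. *Mcpt8*, 14.6 kb away, fell (log2 fold change -2.06), as did *Mcpt4*, 37.6 kb away (-6.04). *Mcpt1* and *Mcpt2* had log2 fold changes of 0.23 and 0.18 and did not pass the test. These proteases are related in sequence, and how shared reads were counted is not given in the sources used here. Near *Mpo* 5 of 10 genes were higher, *Epx* among them, and 2 lower. Near *Ms4a3* 3 of 9 were higher, the family members *Ms4a6d*, *Ms4a6b* and *Ms4a4b*, and 1 was lower, *Stx3* (-1.95). *Ms4a2*, the mast cell member of the family, had a log2 fold change of -0.13 and did not pass the test.

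**Figure D5:**
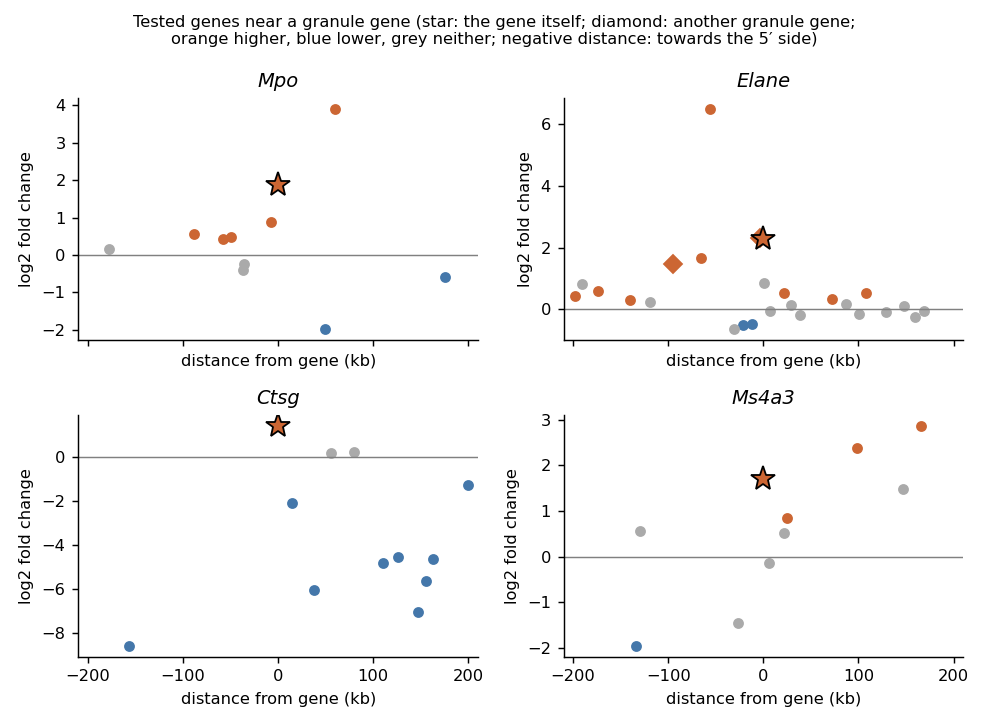
Log2 fold change of tested genes against their distance from *Mpo*, *Elane*, *Ctsg* and *Ms4a3* in kb, with the gene itself as a star, other genes of the set as diamonds, and the colours of the plot of gene lists. Around *Ctsg* the star is the only orange mark, and 9 of 11 neighbours are blue.

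The targeted gene was lower as labelled, with *Phf6* at 56.1 to 69.1 CPM in the *WT Phf6,RE9a* libraries and 18.3 to 22.9 CPM in the *VC Phf6,RE9a* libraries. The libraries held 15675358 to 16817994 counts each.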

How the data were processed

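RNA of sorted GFP+ leukemia cells was sequenced by the authors from Illumina TruSeq libraries, and the deposited table gives raw read counts and FPKM per Ensembl gene. FPKM in the deposited table is per kilobase of the listed gene length, and was used only to compare genes with each other. Processing notes of the submitters name Bowtie 0.12.0 and mm8, yet 98.3% of 54409 genes in the deposited table have the GRCm38 positions of GENCODE, as do all 6 members. The counting tool, annotation release and strand setting are not given in the sources used here. Columns of the authors' DESeq2 comparison (mean signal per group, log2 fold change, p-value and adjusted p-value) were deposited too and were not used.

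Counts were tested with edgeR 4.0.16 in R 4.3.3 (quasi-likelihood test, filterByExpr, TMM scaling, 2 groups of 3 libraries, no covariate), with Benjamini-Hochberg adjustment over 14169 genes and a threshold of 0.05. Library totals were 15675358 to 16817994 counts, TMM factors 0.917 to 1.07, and each pair of libraries within a group differed beyond sampling noise. The script was tested on simulated data. Exact permutation tests used scipy 1.17.1. Alternatives were DESeq2 1.42.0, limma 3.58.1 on log2(FPKM + 1), other scalings and filters, and each library left out. Promoters were read from RefSeq windows, with 5 of 6 members matched, over 150 bases before the start, and over 250 bases as an alternative chosen after seeing the sequences. Named genes were the 6 members, *Phf6*, up to 4 tested genes of each pathway list with the highest mean count, 9 fixed genes (*Ctsc*, *Serpinb1a*, *Srgn*, *Cebpa*, *Cebpe*, *Gfi1*, *Spi1*, *Myb*, *Runx1*), neighbours within 200 kb with a mean of at least 10 counts, and the 3 most similar genes of each member whose average log2 CPM was 1 or more. Others were named after their values were seen, and some genes that the rule names are not reported here. The members and lists were chosen with earlier results of these data known.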

Additional observations from a re-analysis of the deposited data

How the results depend on the processing

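No paired analysis was possible because the groups share no replicate number. All 6 members kept a positive log2 fold change in each alternative that could test them, though not always the call. *Prss57* was not tested with at least 10 counts required in every library. Of 71 alternative values of the members, 65 kept direction and call and 6 lost the call. The log2 fold change ranged over 1.53 to 2.71 for *Mpo* and 1.11 to 1.98 for *Prss57* with 1 library left out, and was 0.52 for *Prss57* by limma on log2(FPKM + 1), where a pseudocount of 1 shrinks low genes. With 1 library left out, other azurophil content had 4 to 9 genes lower and 1 to 2 higher, folding and sorting genes 3 to 5 lower and 0 to 2 higher, and inhibitors 1 to 3 lower and 1 to 2 higher. Scaling by library totals left 5 other azurophil genes lower and 2 inhibitors higher. With at least 10 counts in every library, 1 other azurophil gene and 0 related proteases or peroxidases were higher by edgeR, and 2 of the latter were higher by DESeq2 and without a filter. Of the neighbours, 14 of 34 were higher and 5 lower within 100 kb, and 21 of 106 were higher and 42 lower within 500 kb. The cause was not tested.

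Of 98 other named genes, 12 changed sign in some alternative. Under library totals the log2 fold changes were 0.10 for *Pdia3*, 0.064 for *Serpina3f*, 0.054 for *Arhgap45*, 0.092 for *Sbno2*, 0.0015 for *Cnn2*, 0.10 for *Med16* and 0.012 for *Ms4a2*, and *Serpina3f* was at 0.051 by limma. With 1 library left out the ranges were -0.14 to 0.011 for *Pdia3*, -0.41 to 0.58 for *Serpina3f*, -0.39 to 0.072 for *Mir142hg*, -0.36 to 0.47 for *Kiss1r*, -0.029 to 0.21 for *Tpgs1*, -0.23 to 0.81 for *Mcpt1* and -0.23 to 0.80 for *Mcpt2*. *Prss57* had 6 to 55 reads a library and *Mpo* 248 to 2960, with a standard error of 0.50 for both.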
